A study of Mus musculus with 30 samples.

Results

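The genes that build, load and regulate MHC class II were followed in fracture callus of lean and diet-induced obese (DIO) mice. They were 10 genes chosen by name: H2-Aa, H2-Ab1, H2-Eb1, Cd74, Ciita, H2-DMa, H2-DMb1, H2-Oa, H2-Ob and Ctss. All 10 were found by Ensembl identifier among the 43629 genes of the count table, and each had at least 6 reads in every one of the 30 libraries. Levels are given as CPM, the reads of a gene scaled to the counted reads of its library and with edgeR's TMM factors.

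The mice were male C57BL/6J, 20 weeks of age, and the right tibia was cut in an open osteotomy and held with an intramedullary nail. Calli of lean mice, kept on lean diet, were taken 3, 5, 7 and 10 days (d3 to d10) after fracture, and those of DIO mice, which were fed a high-fat diet before and after it, also at 14 and 21 days (d14, d21), from 3 mice for each diet and day. Each library is the callus of 1 mouse, freed of the soft tissue around it, and between 13247122 and 26365620 reads were counted per library. Later lean calli were not analysed here, and d14 and d21 are described for DIO mice alone.

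MHC class II molecules carry peptides from the endosomes of antigen-presenting cells to the surface, where CD4+ T cells read them. Dendritic cells, B cells and activated macrophages are the main cells that make them, and nearly all of that expression depends on the coactivator CIITA. In whole callus, fewer of these cells and less RNA in each of them cannot be told apart. The C57BL/6J strain carries the H2-b haplotype, in which the I-E alpha gene is defective, so I-A is the only classical class II molecule at the surface of its cells. The defective gene, listed as H2-Ea-ps, had 0 reads in 28 of the libraries and 1 read in each of the other two, both of DIO d21.

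CIITA binds no DNA itself. It is recruited by RFX, CREB and NF-Y proteins to a promoter module in which an X box and a Y box lie a fixed distance apart. RefSeq promoters of GRCm38.p6, reaching from 250 bases before to 50 bases after the start site, were used for 7 of the 10 genes, in 8 windows. They were searched on both strands for the X box core GCAAC and the Y box core ATTGG, and for GCAAC followed on the same strand by ATTGG starting 25 to 45 bases further on. The pair was found in 4 of the windows, those of H2-Aa, H2-Eb1, H2-Oa and H2-Ob, always on the strand of the gene. Among all 32851 promoter windows of the same length, 1.01% held the pair on either strand, while 35.2% held GCAAC and 37.4% held ATTGG. The 58 bases around each pair are shown with the X box core and the Y box core in capitals, because their distance is nearly the same in genes whose levels differed widely.
H2-Aa (chr17:34287857-34287914, minus strand): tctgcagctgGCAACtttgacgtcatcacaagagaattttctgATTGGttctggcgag
H2-Eb1 (chr17:34305765-34305822, plus strand): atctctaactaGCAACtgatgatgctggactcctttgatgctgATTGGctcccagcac
H2-Oa (chr17:34092293-34092350, plus strand): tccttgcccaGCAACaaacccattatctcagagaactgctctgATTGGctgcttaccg
H2-Ob (chr17:34238805-34238862, plus strand): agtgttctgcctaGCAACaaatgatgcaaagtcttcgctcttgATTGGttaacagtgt

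The distance from the start of GCAAC to the start of ATTGG was 33 bases in H2-Aa and H2-Oa, 32 in H2-Eb1 and 30 in H2-Ob. In all 4 the pair lay before the start site, with ATTGG beginning between 43 and 59 bases upstream of it. The windows of H2-DMb1 and of 1 of the H2-DMa starts held ATTGG without the exact pair. The other H2-DMa window held GCAAC alone, and the window of Ctss held neither core. Only exact letters were searched, and the H2-DMb1 window held GTAAC, which differs from GCAAC by 1 base, before its ATTGG. The search therefore does not show that H2-DMb1 lacks the module. Nor does it show this for H2-DMa, whose windows (34122582 to 34122881 and 34125268 to 34125567) lie inside the gene. The annotated first base of H2-DMa, 34119541, was in neither. These letters describe the windows and do not show that a factor was bound.

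The genes fall into 4 roles. H2-Aa and H2-Ab1 encode the alpha and beta chains of I-A and H2-Eb1 the beta chain of I-E, and Cd74 encodes the invariant chain that escorts them to the endosome. Ctss encodes cathepsin S, a protease that trims the invariant chain. H2-DMa and H2-DMb1 encode the DM dimer that exchanges the remaining piece for antigenic peptide, and H2-Oa and H2-Ob encode DO, which restrains DM and is best known from B cells. Ciita encodes the coactivator. On GRCm38 the genes H2-Oa (34092340 to 34095234), H2-DMa (34119541 to 34139101), H2-DMb1 (34153072 to 34160230), H2-Ob (34238903 to 34254414), H2-Ab1 (34257689 to 34269419), H2-Aa (34282744 to 34287823) and H2-Eb1 (34305867 to 34316674) lie in 1 region of chromosome 17. Ciita lies on chromosome 16 (10480059 to 10528418) and Ctss on chromosome 3 (95526786 to 95556403). A stretch of 1081 bases of H2-DMb1 is 95.7% identical to its neighbour H2-DMb2, so reads may have been split between them. Exons of Ciita, H2-DMa and H2-Oa overlap those of Dexi, Brd2 and BC051537 on the opposite strand by 329, 360 and 321 bases. The strand setting of the counting is not given in the sources used here, so reads in those stretches cannot be told apart.

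Per kilobase of exon, averaged over the 30 libraries, Cd74 stood highest at 207 CPM and Ctss next at 182 CPM. H2-Eb1 followed at 92.4 CPM, H2-Ab1 at 62.5 CPM and H2-Aa at 59.2 CPM per kilobase. The DM genes were lower, with 16 CPM per kilobase for H2-DMb1 and 7.51 for H2-DMa, and the DO genes lower again, with 3.05 for H2-Oa and 2.64 for H2-Ob. Ciita was the lowest at 1.01 CPM per kilobase. The length used was that of all annotated exons of a gene joined, and the order depends on it. Before division H2-Aa averaged 225 CPM and H2-Eb1 180 CPM. H2-Ob varied most between libraries, from 0.376 to 68.8 CPM, a 183-fold range, and H2-DMb1 least, from 15.9 to 35.0 CPM, a 2.2-fold range. Replicate 1 of lean d10 was the lowest of the 30 libraries for 8 of the 10 genes, the exceptions being H2-DMa and H2-DMb1. The same library stood apart in other ways, with 18.3 CPM of the leukocyte gene Ptprc against 57.2 and 64.8 in the other two of its group, and 55279 summed CPM of 5 cartilage markers against 10579 and 8720.

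**Figure D1:**
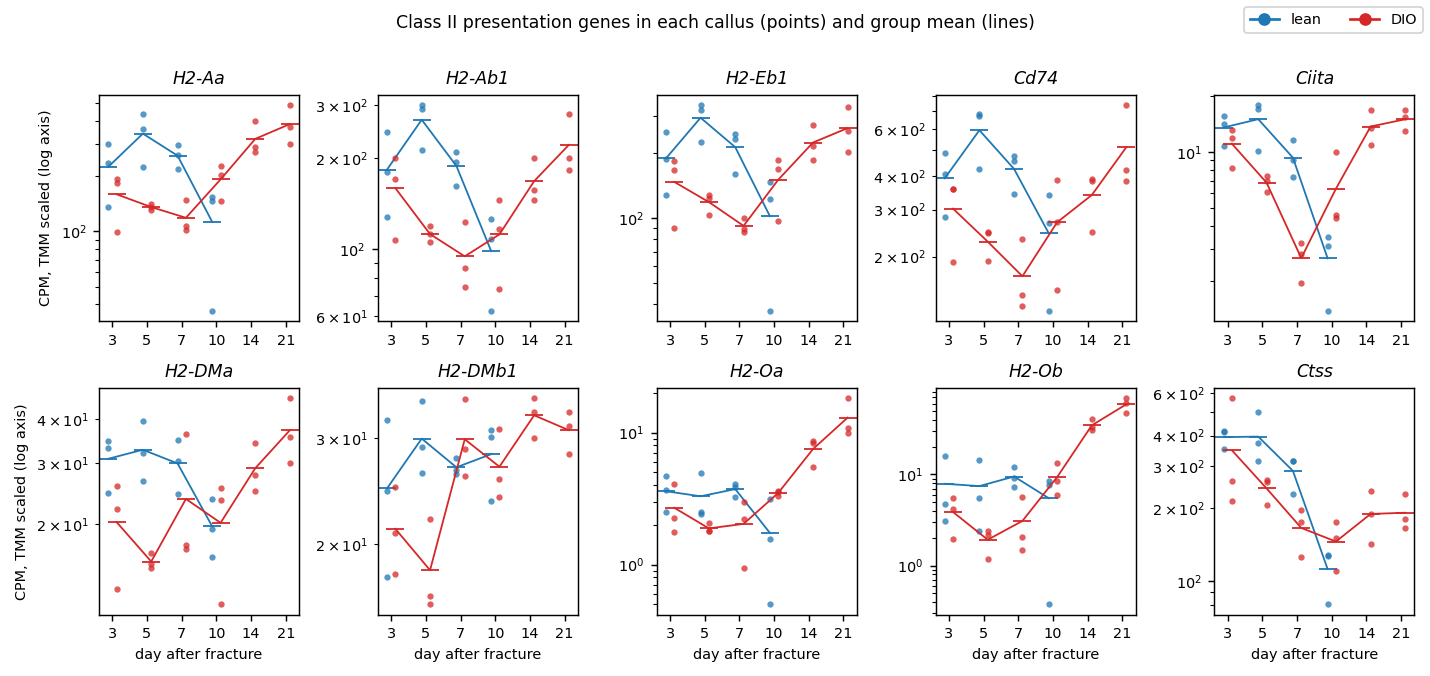
CPM of the 10 genes (log axis) against day after fracture, with a point for each callus and a line through the group means, lean in blue and DIO in red. In lean calli the I-A, I-E beta and Cd74 means peak on d5, in DIO calli the lowest means of those genes lie on d7, and H2-Ob climbs from 1.92 CPM on d5 to 59.1 CPM on d21.

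The comparison of diets asks whether obese mice differ from lean mice on the same day after fracture. The same day need not be the same stage of healing. On d10 the summed cartilage markers were at 8720 to 55279 CPM in lean and 1405 to 4738 CPM in DIO calli. On d5, the genes of I-A, I-E beta and the invariant chain were between 2.39- and 2.61-fold lower in DIO callus than in lean callus. Lean d5 calli had 438, 360 and 225 CPM of H2-Aa, and DIO d5 calli had 136, 131 and 141 CPM. For Cd74 the values were 672, 684 and 427 CPM in lean and 192, 246 and 244 CPM in DIO calli. H2-Ab1 stood at 292, 300 and 214 CPM in lean and 105, 112 and 119 CPM in DIO calli. In none of these did the groups overlap, and the 3 DIO calli lay close together, with an SD of 4.95 CPM for H2-Aa against 108 CPM in lean calli. Here and below, non-overlap only describes the values, because the share of all genes whose groups separate in this way is not given.

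In the fit of the 6 libraries of d5, with edgeR's quasi-likelihood test and Benjamini-Hochberg adjustment, 5 of the 10 genes were lower in DIO callus and 0 were higher. Of all 15722 genes tested, 0.948% were lower at the same threshold of 0.05. The log2 fold changes of those that passed were -1.38 for Cd74 (SE 0.21, adjusted p = 0.0400), -1.33 for H2-Aa (SE 0.22, adjusted p = 0.0458), -1.30 for H2-Eb1 (SE 0.17, adjusted p = 0.0325) and -1.26 for H2-Ab1 (SE 0.15, adjusted p = 0.0296). H2-DMa, the alpha chain of DM, completed them with -1.06 (SE 0.16, adjusted p = 0.0432), from 31.9, 39.7 and 26.5 CPM in lean to 14.9, 15.3 and 16.6 CPM in DIO calli. The other 5 did not pass: Ciita had a log2 fold change of -1.14 (adjusted p = 0.0727), with 17.9, 17.1 and 10.1 CPM in lean and 6.07, 6.99 and 7.44 CPM in DIO calli, H2-DMb1 of -0.72, Ctss of -0.71, H2-Oa of -0.80 and H2-Ob of -1.94. All 10 estimates were negative, with a median of -1.20 against 0.01 over all genes tested. The calls rested on few mice: 0 of the genes passed without replicate 2 of lean d5 or without any 1 of the 3 DIO d5 libraries, 3 without replicate 1 of lean d5 and 9 without replicate 3 of lean d5. Of the 10 genes DESeq2 called 9 on d5 and the fit of all 30 libraries 1. DESeq2 also called more of all genes on d5 than edgeR did, as given at the end, so its 9 cannot be set beside the 0.948%.

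Other class II pathway genes moved on d5 as well. Irf1, a transcription factor that carries the interferon signal to the Ciita promoter, was lower in DIO callus (log2 fold change -0.67, adjusted p = 0.0432), among 2 of the 13 tested genes of the CIITA-inducing and promoter-binding machinery that were lower. Cd274, the inhibitory ligand PD-L1, was lower (-1.05, adjusted p = 0.0458), as the only one of 6 tested costimulation genes to pass. Cd4, the coreceptor that binds class II, was lower by more than any of these (-1.52, adjusted p = 0.0199), with 25.9, 30.2 and 23.9 CPM in lean and 8.92, 9.73 and 9.24 CPM in DIO d5 calli. None of the 12 endosomal processing genes passed on d5 in edgeR, while their median was -0.26. Ifng itself was near the limit of detection, with 0 to 11 reads per library from lean d3 to d10 and 0 reads in all 9 DIO libraries of d3 to d7.

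Markers of several blood cell types were lower on the same day. Ptprc, a surface phosphatase of all leukocytes, stood at 141, 171 and 115 CPM in lean and 71.7, 76.5 and 71.7 CPM in DIO d5 calli, a log2 fold change of -0.96 (SE 0.15, adjusted p = 0.0432). The 11 dendritic cell markers summed to between 137 and 200 CPM in lean and between 82.6 and 96.5 CPM in DIO d5 calli, and 2 of the 10 tested were lower at the threshold. The 12 monocyte and macrophage markers summed to between 2194 and 2809 CPM in lean and between 1546 and 1810 CPM in DIO calli, with 0 called. For 10 B cell markers the sums were 119 to 463 CPM in lean and 33.7 to 69.2 CPM in DIO calli, with 0 of the 7 tested called, and no marker of these lists was at 0 in all 3 libraries of a group. Of the T cell markers 2 of 6 tested were lower, with sums of 12 to 13.1 CPM in DIO against 30.7 to 42.8 CPM in lean calli. Cd4, given above, is 1 of those 2 and the larger part of each sum, so the sums do not stand apart from it. Of the neutrophil, erythroid, cartilage, bone, muscle, adipocyte and endothelial markers 0 were called, which does not show that they were unchanged. All 7 neutrophil and all 4 erythroid markers had lower estimates, with medians of -1.86 and -1.66 on the log2 scale. All 5 cartilage markers had higher estimates, with a median of 1.42. The medians were 0.48 for bone, -0.40 for muscle and -0.10 for endothelium, and the 1 adipocyte marker tested stood at -2.81. The part of these cells in the lower class II levels was not tested. The sums are of RNA and are not cell counts. In the authors' flow cytometry of d5 calli, monocytes were a smaller share of single cells in DIO than in lean mice. Dendritic cells were a larger share there, and most lymphoid populations were similar. A larger share of macrophages also carried MHC class II in DIO calli. Divided by Ptprc in the same library, H2-Aa reached between 1.95 and 3.10 in lean and between 1.71 and 1.96 in DIO d5 calli. The means were 2.39 and 1.86, and the ranges overlapped slightly. Cd74 over Ptprc was 3.7 to 4.75 in lean and 2.68 to 3.40 in DIO d5 calli, without overlap, whereas H2-DMa over Ptprc overlapped, at 0.226 to 0.232 and 0.201 to 0.231.

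On d7, Ciita, Cd74 and the I-A and I-E beta genes were lower in DIO callus. Lean d7 calli had 9.02, 7.34 and 11.6 CPM of Ciita and DIO d7 calli 1.95, 3.23 and 2.82 CPM, a log2 fold change of -1.80 (SE 0.31, adjusted p = 0.0241). For Cd74 the values were 478, 455 and 344 CPM in lean and 144, 130 and 232 CPM in DIO calli. For H2-Eb1 they were 248, 234 and 161 CPM in lean and 86.7, 89.2 and 100 CPM in DIO calli. The groups did not overlap in any of these.

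On d7 5 of the 10 genes were lower and 0 were higher in edgeR, where 0.920% of all 15753 genes tested were lower. Besides Ciita these were Cd74 (log2 fold change -1.32, adjusted p = 0.0289), H2-Eb1 (-1.20, adjusted p = 0.0195), H2-Aa (-1.11, adjusted p = 0.0266) and H2-Ab1 (-0.98, adjusted p = 0.0448). H2-DMa, called on d5, stood at -0.33 on d7 with an adjusted p of 0.646, with 1 DIO callus at 36.4 CPM beside 17.4 and 17.0 CPM. H2-DMb1 was at 0.17, Ctss at -0.77, H2-Oa at -0.87 and H2-Ob at -1.61, and none of them passed. The median was -1.05 against 0.00 over all genes. Without replicate 1 or 2 of lean d7, or without replicate 1 of DIO d7, 0 genes passed, without replicate 2 of DIO d7 2 passed, and without replicate 3 of lean d7 3 passed. Cd83, which shields surface class II from turnover, was the pathway gene lower on d7 in edgeR, at 19.3, 20.5 and 11.9 CPM in lean and 7.80, 4.34 and 5.31 CPM in DIO calli (log2 fold change -1.55, adjusted p = 0.0330). Ptprc was lower too (-0.97, adjusted p = 0.0418). The monocyte and macrophage markers summed to between 1636 and 2398 CPM in lean and between 1114 and 1320 CPM in DIO d7 calli, with 2 of the 12 called lower, and the dendritic cell markers to between 155 and 180 CPM and between 76.4 and 119 CPM, with 0 of 10 called. The summed cartilage markers ran from 2875 to 12082 CPM in lean and from 13006 to 32540 CPM in DIO d7 calli, with 1 of 5 called higher, and the part of these cells in the lower class II levels was not tested. Relative to Ptprc, Ciita was at 0.0523 to 0.0784 in lean and 0.0256 to 0.0584 in DIO d7 calli, so the groups overlapped on that scale.

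On d3 and d10 no diet difference passed. On d3, edgeR called 0 of the 10 genes, 1 had an unadjusted p under 0.05, and DESeq2 called 0. Of all genes tested 0% were called in either direction on d3. The estimates were all negative, from -1.03 for H2-Ob and -0.59 for H2-DMa to -0.19 for H2-Ab1 and -0.17 for Ctss. On d10, edgeR called 0 of the 10 genes, DESeq2 called 0, 1 had an unadjusted p under 0.05, and again 0% of all genes were called in either direction. The signs of most estimates were opposite to those of d3: 9 of the 10 were higher in DIO callus, with a median of 0.48 and the highest for Ciita at 1.26 (SE 0.48). Lean d10 calli had 1.38, 3.49 and 3.12 CPM of Ciita, all below the 10.0, 4.54 and 4.41 CPM of DIO d10 calli. For H2-Aa the groups overlapped, at 36.8, 155 and 146 CPM in lean and 229, 202 and 146 CPM in DIO d10 calli, and replicate 1 of lean d10 was far below the others. Cd74 stood at 125, 340 and 268 CPM in lean and 386, 269 and 150 CPM in DIO d10 calli. H2-Ab1 stood at 62.1, 125 and 108 CPM in lean and 145, 116 and 73.8 CPM in DIO d10 calli. For both genes only replicate 1 of lean d10 lay below the DIO range, so their positive signs leaned on that library.

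**Figure D2:**
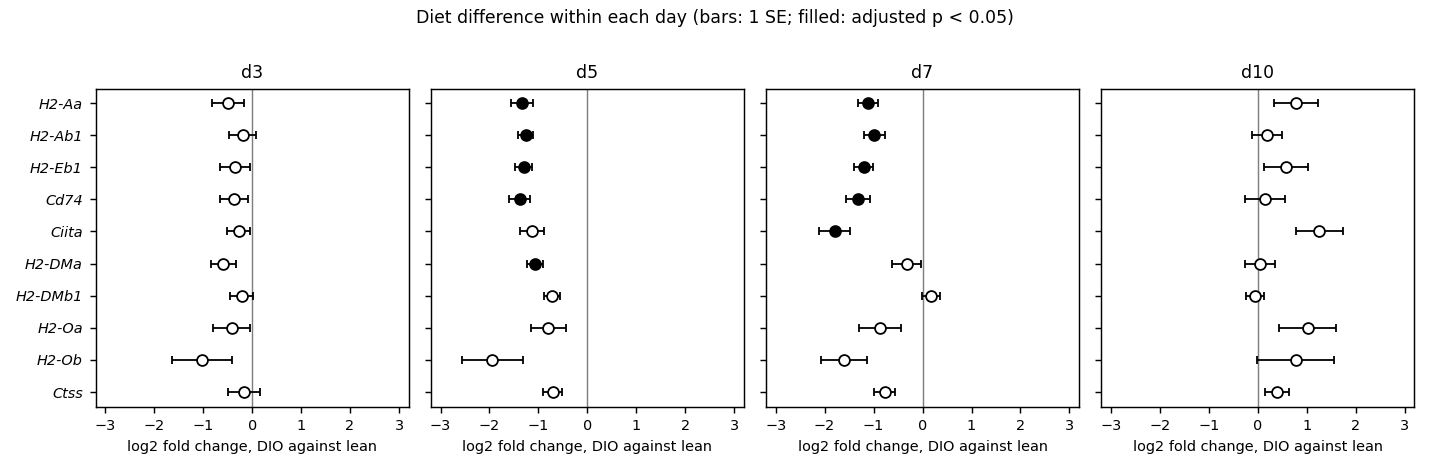
Log2 fold change of DIO against lean callus on d3, d5, d7 and d10 for each gene, with bars of 1 SE and filled points where the edgeR adjusted p was under 0.05. All points are left of 0 on d3 and d5, 5 of them are filled on each of d5 and d7, and on d10 9 of the 10 lie right of 0 with none filled.

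Whether the diet difference itself changed between d7 and d10 was tested by fitting the 24 lean and DIO libraries up to d10 together. It rose for 3 of the 10 genes, beside 1.70% of all 17057 genes tested. The change in log2 fold change was 3.05 for Ciita (SE 0.50, adjusted p = 0.00302), 1.90 for H2-Aa (SE 0.54, adjusted p = 0.0458) and 1.79 for H2-Eb1 (SE 0.52, adjusted p = 0.0484). The other 7 did not pass, with 2.39 for H2-Ob, 1.89 for H2-Oa, 1.48 for Cd74, 1.18 for H2-Ab1, 1.17 for Ctss, 0.38 for H2-DMa and -0.22 for H2-DMb1, and the median of the 10 was 1.63 against 0.02 over all genes. Among the promoter-binding and inducing genes Irf1 (1.31, adjusted p = 0.00827), Rfx5 (1.17, adjusted p = 0.0234) and Nfya (0.66, adjusted p = 0.0444) rose in the same test. Rfx5 encodes the DNA-binding subunit of RFX and Nfya a subunit of NF-Y, the factors named above for the X box and the Y box. Ciita passed under each of the 18 alternatives run, with values between 2.56 and 3.29. H2-Aa was lost in 10 of them and H2-Eb1 in 9, and 1 gene of the 10 passed without replicate 1 of lean d10. Likewise 1 of the 10 passed without replicate 1 or 2 of lean d7, of DIO d7 or of DIO d10, while 6 passed without replicate 2 of lean d10. The estimate for Ptprc in the same test was 1.55 (adjusted p = 0.0583). Of the cartilage markers 4 of 5 fell in that test, with a median of -4.89, and of the monocyte and macrophage markers 2 of 12 rose, with a median of 1.07. Their part in the change was not tested.

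From d3 to d10 the diet difference changed for 0 of the 10 genes in edgeR, with 3 at an unadjusted p under 0.05 and 0 called by DESeq2, beside 0.00586% of all genes called in either direction. In the test of any change from d3 to d10, Ciita passed (adjusted p = 0.0218), beside 1.65% of all genes, and it was lost without replicate 2 of lean d7 or replicate 1 of DIO d10, where 0 of the 10 passed.

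The days were then compared within lean mice, in 1 fit of the 12 lean libraries, to follow class II expression through normal early healing. Ciita and Ctss fell most. Ctss stood at 416, 351 and 417 CPM on d3, 502, 373 and 315 CPM on d5, 314, 314 and 230 CPM on d7 and 80.4, 129 and 128 CPM on d10. All d10 calli were below all earlier ones. Ciita stood at 10.8, 15.7 and 14.2 CPM on d3, 17.9, 17.1 and 10.1 CPM on d5, 9.02, 7.34 and 11.6 CPM on d7 and 1.38, 3.49 and 3.12 CPM on d10, again with no overlap between d10 and the days before it.

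From d3 to d10, 4 of the 10 genes fell and 0 rose in lean callus, beside 14.1% of all 16471 genes that fell. Ciita fell by 2.31 on the log2 scale (SE 0.35, adjusted p = 0.00104) and Ctss fell by 1.78 (SE 0.24, adjusted p = 0.000558), and both passed under each of the 12 alternatives run. H2-Ab1 fell by 0.86 (SE 0.28, adjusted p = 0.0365) and H2-DMa fell by 0.61 (SE 0.21, adjusted p = 0.0440), and both were lost without replicate 1 of lean d10. Without replicate 2 or 3 of lean d3, or without replicate 1 or 3 of lean d10, 2 of the 10 genes passed. The median of the 10 was -0.86 against 0.02 over all genes tested. H2-DMb1, with 17.6, 24.5 and 32.2 CPM on d3 and 31, 23.6 and 30.1 CPM on d10, had a log2 fold change of 0.22 (adjusted p = 0.425).

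Of the single steps, that from d7 to d10 was the one in which Ciita and Ctss passed, 2 of the 10 genes beside 1.65% of all genes that fell. Ciita fell by 1.79 (adjusted p = 0.0302) and Ctss fell by 1.34 (adjusted p = 0.0218). The other 8 had estimates from -1.19 for H2-Aa to 0.09 for H2-DMb1. Without replicate 1 or 2 of lean d7 0 of the 10 genes passed, and without replicate 3 of lean d7 or replicate 1 of lean d10 1 passed. From d3 to d5 edgeR called 0 of the 10 genes, none had an unadjusted p under 0.05 and DESeq2 called 0, while 0.449% of all genes were called in either direction. The means of H2-Aa, H2-Ab1, H2-Eb1 and Cd74 were highest on d5, with log2 fold changes from 0.58 to 0.66 and adjusted p from 0.363 to 0.565, and the other 6 had estimates from -0.11 for H2-Oa to 0.30 for H2-DMb1. From d5 to d7 edgeR and DESeq2 called 0 of the 10, none had an unadjusted p under 0.05, and 0% of all genes were called. The lowest estimates of that step were those of Ciita (-0.70) and H2-Ab1 (-0.52), with Ctss at -0.48, and the highest was that of H2-Ob (0.36). Whether the steps differed was not tested. In the test of any day, H2-Ab1, Ciita and Ctss passed in edgeR, 3 of 10 beside 19% of all genes. DESeq2 called 7, for which the share over all genes is not given here.

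The other genes of the class II pathway moved in both directions from d3 to d10 in lean callus, where 14.1% of all genes fell and 15.2% rose. Of 13 tested inducing and promoter-binding genes 6 fell and 0 rose, among them Nfya (log2 fold change -0.80, adjusted p = 0.00205), Rfx5 (-0.94, adjusted p = 0.00980) and Nfyb (-0.53, adjusted p = 0.0190), which encode subunits of NF-Y and of RFX. Of 7 costimulation genes 6 fell, with Cd274 at -1.54 (adjusted p = 0.00263) and Tnfsf9 at -2.56 (adjusted p = 0.00295). Of 12 endosomal processing genes 2 fell and 3 rose. Of the 3 turnover genes March1 fell by 1.85 (adjusted p = 0.0106) and Cd83 rose by 1.12 (adjusted p = 0.0289), and 0 of the 3 T cell recognition genes passed, with a median of 0.57. Ctsc, a dipeptidase of lysosomes, fell by 1.52 (adjusted p = 0.000148), whereas Cst3, the cathepsin inhibitor cystatin C, rose by 2.59 (adjusted p = 0.000712). Cst3 was highest in replicate 1 of lean d10, at 5265 CPM, against 2091 and 1781 CPM in the other two and 454 to 627 CPM on d3. Ptprc fell by 1.90 (adjusted p = 0.00463) over the same days, and 7 of the 12 monocyte and macrophage markers fell while 2 rose. All 5 cartilage markers rose, with a median of 6.44, as did all 5 bone markers, with a median of 1.37, and the part of these tissues in the fall of class II genes was not tested. Ciita over Ptprc went from 0.0611 to 0.101 on d3 to between 0.0481 and 0.0753 on d10, with overlap. Ctss over Ptprc was 1.37 to 2.97 on d3 and 1.97 to 4.39 on d10. Cd74 over Ptprc was higher on d10, at 4.13 to 6.83, than on d3, at 1.59 to 3.48.

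In DIO mice the days were compared in 1 fit of 18 libraries, which reached d21. All 10 genes differed between days in the test of any day, beside 59.1% of all 16995 genes tested, with adjusted p from 1.70e-07 for H2-Ob to 0.0255 for H2-DMa. The I-A, I-E beta and Cd74 genes were lowest on d7 and highest on d21. H2-Aa averaged 160 CPM on d3, 119 CPM on d7, 192 CPM on d10, 320 CPM on d14 and 385 CPM on d21. Cd74 averaged 302 CPM on d3, 169 CPM on d7 and 514 CPM on d21, with 738 CPM in 1 callus of the last day and 422 and 383 CPM in the others. Ciita reached its lowest mean, 2.67 CPM, on d7 and was back at 15 CPM on d21, close to the 15.1 CPM of lean d5.

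The steps up to d7 did not pass. From d3 to d5 edgeR called 0 of the 10 genes, 2 had an unadjusted p under 0.05, DESeq2 called 0, and 1.68% of all genes were called in either direction. All 10 estimates of that step were negative, from -1.0 for H2-Ob to -0.23 for H2-Aa and H2-DMb1. From d5 to d7 edgeR called 0, beside 0.0177% of all genes, with estimates from -1.36 for Ciita to 0.72 for H2-DMb1. In that step 2 had an unadjusted p under 0.05 in edgeR, and DESeq2 called 2. Without replicate 2 of DIO d7, 2 of the 10 passed in edgeR. From d7 to d10 Ciita rose by 1.25 (SE 0.32, adjusted p = 0.0138), from 1.95, 3.23 and 2.82 to 10.0, 4.54 and 4.41 CPM. H2-Ob rose by 1.59 (SE 0.43, adjusted p = 0.0208), from 2.08, 1.47 and 5.71 to 8.51, 13.5 and 6.02 CPM. They were 2 of the 10 genes, beside 6.01% of all genes that rose and 7.01% that fell, and 0 of the 10 passed without replicate 1 of DIO d7. Without replicate 2 of DIO d7 or replicate 1 or 2 of DIO d10, 1 of the 10 passed. Irf1 (0.60, adjusted p = 0.0144), the thiol reductase gene Ifi30 (1.12, adjusted p = 0.00115) and Cd83 (1.87, adjusted p = 7.54e-05) rose in the same step, in which 7 pathway genes rose and 1 fell. Of the B cell markers 7 of 10 rose from d7 to d10, and the summed cartilage markers, 13006 to 32540 CPM on d7, were at 1405 to 4738 CPM on d10, with their part in these changes not tested.

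From d10 to d14 H2-Ob passed, with a rise of 1.89 (SE 0.41, adjusted p = 0.0431), beside 0.583% of all genes that rose. Leaving out replicate 2 or 3 of DIO d10 or replicate 1 or 2 of DIO d14 left 0 of the 10, and leaving out replicate 3 of DIO d14 gave 2. The paralogue of H2-DMb1, H2-DMb2, rose as well (1.67, adjusted p = 0.0328). From d14 to d21 edgeR called 0 of the 10, 1 had an unadjusted p under 0.05 and DESeq2 called 0, although 19.6% of all genes were called, with estimates from -0.08 for H2-DMb1 to 0.79 for H2-Oa.

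From d3 to d21, 6 of the 10 genes rose, beside 23.5% of all genes that rose, and Ctss fell, beside 21.8% that fell. The DO genes rose most. H2-Ob went from 5.52, 4.14 and 1.94 CPM on d3 to 68.8, 47.8 and 60.6 CPM on d21, a log2 fold change of 3.93 (SE 0.44, adjusted p = 3.72e-06) or 15.2-fold. H2-Oa went from 4.08, 2.25 and 1.76 CPM to 18.2, 9.98 and 10.8 CPM, a log2 fold change of 2.27 (SE 0.37, adjusted p = 0.000113). The calli of d3 and d21 did not overlap for either gene, and both calls held under each of the 12 alternatives run, as did that of H2-Aa (1.27, SE 0.25, adjusted p = 0.000634). H2-DMa (0.88, adjusted p = 0.0312), H2-Eb1 (0.83, adjusted p = 0.0154) and H2-DMb1 (0.55, adjusted p = 0.0149) rose by less, while H2-Ab1 at 0.48, Cd74 at 0.77 and Ciita at 0.44 did not pass. The median of the 10 was 0.80 against 0.03 over all genes. Without replicate 3 of DIO d3 or replicate 2 of DIO d21, 4 of the 10 passed.

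Ctss went the other way. DIO calli had 572, 259 and 214 CPM of Ctss on d3 and 229, 166 and 181 CPM on d21, a log2 fold change of -0.86 (SE 0.30, adjusted p = 0.0284) that was lost under 3 of the 12 alternatives, and the groups overlapped. The monocyte and macrophage markers summed to 2817, 1815 and 1364 CPM in the 3 DIO d3 calli, in the same order as Ctss, and to between 1786 and 2048 CPM on d21, with 2 of the 12 risen and 4 fallen, and their part in the fall of Ctss was not tested. By d10 Ctss had already fallen by 1.25 (SE 0.31, adjusted p = 0.00788), beside 10.8% of all genes that fell. H2-Ob rose by 1.27 between d3 and d10 (adjusted p = 0.0391), beside 11.1% of all genes that rose, and these were 2 of the 10 genes in that comparison. Without replicate 1 or 2 of DIO d3, or replicate 2 of DIO d10, 1 of them passed.

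**Figure D3:**
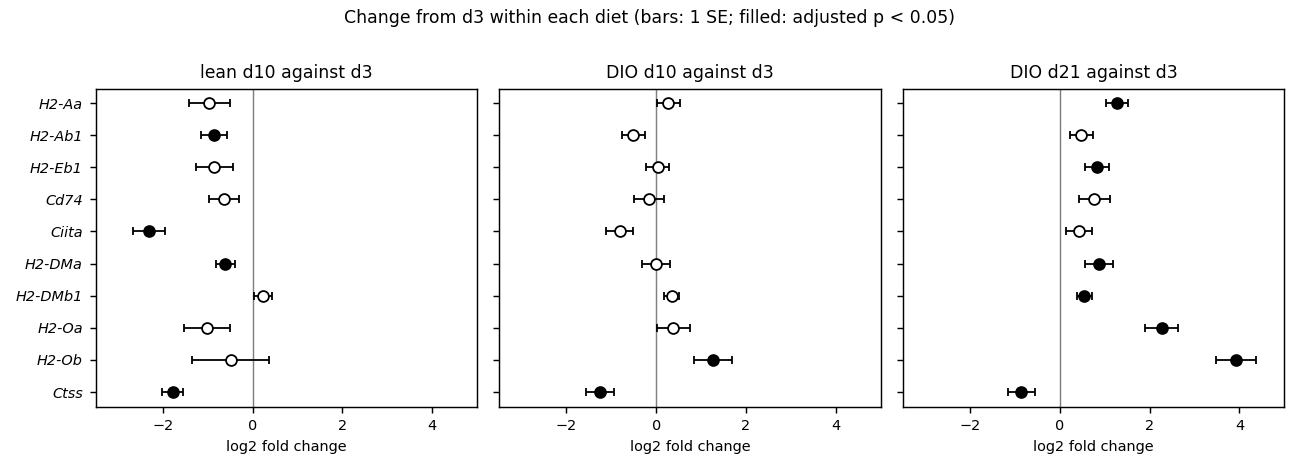
Log2 fold change from d3 to d10 in lean callus, from d3 to d10 in DIO callus and from d3 to d21 in DIO callus, with bars of 1 SE and filled points where the edgeR adjusted p was under 0.05. Ciita at -2.31 and Ctss at -1.78 stand farthest left in lean callus, and H2-Ob at 3.93 farthest right in DIO callus on d21, where Ctss is the filled point left of 0.

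The rise of the DO genes came with the B cell markers. The 10 B cell markers summed to between 33.7 and 69.2 CPM on DIO d5, 335 and 440 CPM on d10, 831 and 1281 CPM on d14 and 1350 and 1929 CPM on d21, and all 10 rose from d3 to d21. Cd79a, the signalling chain of the B cell receptor, had 1.62, 1.52 and 1.45 CPM on DIO d3 and 82.9, 100 and 123 CPM on d21. Among the lean calli, replicate 2 of d3 had the highest B cell sum, 997 CPM, and the highest H2-Ob, 15.9 CPM against 3.08 and 4.70 CPM in its group. Likewise replicate 2 of lean d5 had a B cell sum of 463 CPM and 14.5 CPM of H2-Ob, against 5.47 and 2.42 CPM. In the library with the lowest H2-Ob, replicate 1 of lean d10, the B cell markers summed to 65.0 CPM. Other libraries departed from this order. The lowest B cell sum, 33.7 CPM, was in replicate 3 of DIO d5, with 2.42 CPM of H2-Ob. Replicate 1 of DIO d14 had a sum of 856 CPM, below that of lean d3 replicate 2, and 30.5 CPM of H2-Ob. The highest lean level of H2-Aa, 438 CPM, was in replicate 1 of d5, where the B cell markers summed to 119 CPM. H2-Ob over Cd79a averaged 0.641 on DIO d10, 0.587 on d14 and 0.600 on d21 and was 2.49 on DIO d3. The part of B cells in the rise of H2-Ob and H2-Oa was not tested. Markers of other cells were also higher on DIO d21 than on d3: the erythroid markers summed to between 586 and 666 CPM on d3 and between 20712 and 30398 CPM on d21, with all 4 called. Likewise 7 of 7 T cell, 6 of 7 neutrophil and 4 of 4 adipocyte markers rose over those days, and their part in the rise was not tested.

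**Figure D4:**
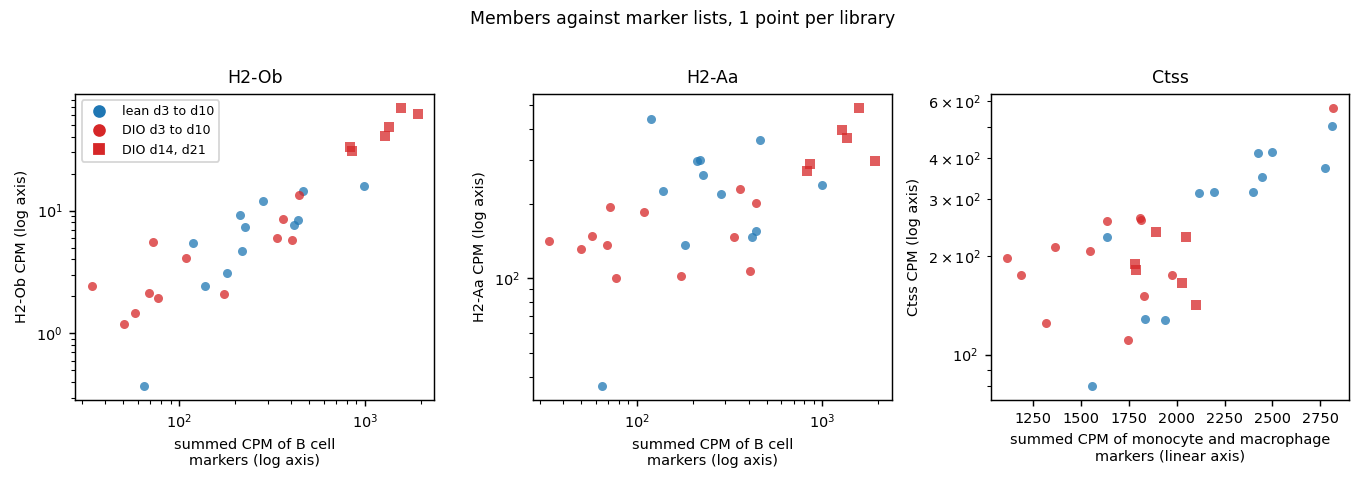
H2-Ob and H2-Aa against the summed CPM of 10 B cell markers (log axes), and Ctss against the summed CPM of 12 monocyte and macrophage markers (linear horizontal axis, log vertical axis), with 1 point per library, lean in blue, DIO in red and DIO d14 and d21 as squares. The lowest H2-Ob, 0.376 CPM, lies at a B cell sum of 65.0 CPM and the highest, 68.8 CPM, at 1576 CPM, whereas H2-Aa is spread between 36.8 and 488 CPM over the same sums, and the highest Ctss, 572 CPM, lies at the highest monocyte and macrophage sum, 2817 CPM.

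The balance of DO to DM followed from these levels. It was taken per kilobase and was chosen after the levels had been seen, so it is given with no test. H2-DMb1 alone stood for the DM beta chain. Its paralogue H2-DMb2, which also rose from d3 to d21 in DIO callus, was left out. The beta ratio is therefore to H2-DMb1 and not to all DM beta RNA. H2-Ob over H2-DMb1 was between 0.0339 and 0.0693 on DIO d3, 0.0783 and 0.136 on d10, 0.293 and 0.380 on d14 and 0.474 and 0.671 on d21. For the alpha chains, H2-Oa over H2-DMa was 0.250 to 0.389 on DIO d3 and 0.531 to 1.25 on d21. In lean calli of d3 to d10 H2-Ob over H2-DMb1 stayed between 0.00379 and 0.203.

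Relative to Ptprc the genes parted in the late DIO callus, where Ptprc itself rose by 1.21 on the log2 scale from d3 to d21 (adjusted p = 0.000941). H2-Ob over Ptprc went from 0.0295 to 0.0426 on DIO d3 to between 0.226 and 0.305 on d21, without overlap. Ctss over Ptprc went from 2.48 to 4.40 on d3 to between 0.676 and 1.05 on d21, also without overlap. H2-Aa over Ptprc averaged 1.59 on d3 and 1.76 on d21 and its ranges overlapped, and Cd74 over Ptprc averaged 3.03 and 2.57, or 1.5 on d21 without replicate 2.

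**Figure D5:**
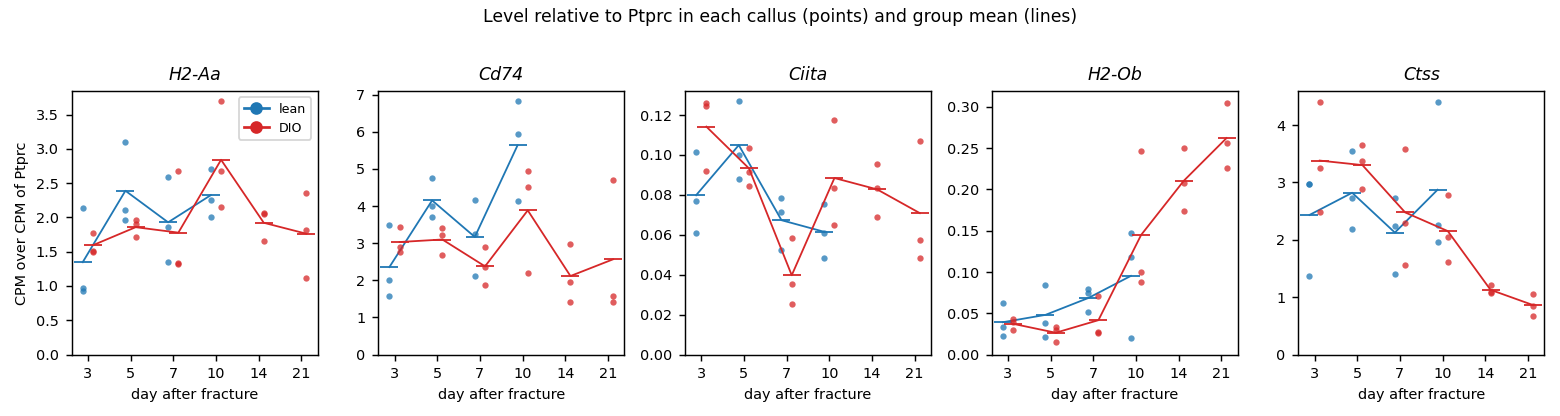
CPM of H2-Aa, Cd74, Ciita, H2-Ob and Ctss divided by the CPM of Ptprc in the same library, against day after fracture, with a point for each callus and a line through the group means, lean in blue and DIO in red. In DIO calli the H2-Ob ratio rises to a mean of 0.262 on d21 and the Ctss ratio falls to a mean of 0.861, while the lowest group mean of the Ciita ratio, 0.0397, is that of DIO d7.

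The rest of the pathway moved in both directions between DIO d3 and d21, days between which 23.5% of all genes rose and 21.8% fell. The turnover genes March8 (log2 fold change 1.67, adjusted p = 2.81e-06), March1 (1.98, adjusted p = 0.000133) and Cd83 (2.28, adjusted p = 2.33e-06) rose from d3, which was all 3 of that list. March1 and March8 encode membrane ubiquitin ligases that send surface proteins, class II among them, to the lysosome. Both other class II genes tested rose, H2-DMb2 (2.65, adjusted p = 9.90e-06) to between 19.3 and 27.5 CPM and H2-Eb2 (3.67, adjusted p = 0.000638) to between 1.59 and 2.71 CPM. Of 13 inducing and promoter-binding genes 6 rose and 1 fell, with Nfyb at 1.13 (adjusted p = 0.000126). Of 12 endosomal processing genes 1 rose and 5 fell, and Lgmn, a cysteine endopeptidase, fell by 1.22 (adjusted p = 0.000151) and Ctsc fell by 1.14 (adjusted p = 6.23e-05). Their median was -0.44, while that of the 10 class II presentation genes was 0.80.

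The order of the group means showed how far neighbours could be told apart. For H2-Aa, H2-Ab1, H2-Eb1 and H2-DMb1 none of the 9 gaps between neighbouring group means was larger than the SD of the more variable neighbour. For Cd74 and H2-DMa 1 gap was larger, and for Ciita, H2-Oa, H2-Ob and Ctss 2 were. For H2-Ob both lay at the top, with DIO d21 at 59.1 CPM, DIO d14 at 34.6 CPM and all other groups at or under 9.49 CPM.

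Among 14797 genes with a mean of at least 1 CPM, those whose log2 CPM was most like the mean standardized profile of the 10 genes over the 30 libraries were Ly9 (Pearson's r = 0.943, Spearman's rho = 0.934), H2-D1 (r = 0.938), Tap1 (r = 0.938), Cd48 (r = 0.932) and Ly86 (r = 0.923). After the mean of each group was subtracted, they were Naaa (r = 0.888), Clec10a (r = 0.859), Il10ra (r = 0.854), Echdc3 (r = 0.849) and Ly9 (r = 0.848). These values describe the libraries, which share days, diets and counting, and were the highest of many, so no p is given.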

How the data were processed

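RNA from calli of lean and DIO mice was sequenced in 30 libraries, 3 mice per diet and day. Per the methods and the labels' processing notes, the authors demultiplexed with bcl2fastq, trimmed with BBDuk, aligned to GRCm38 with HISAT2 2.1.0 and counted reads per gene with HTSeq, whose version is not given in the sources used here. The deposited values are raw read counts for 43629 genes, without normalization.

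For the counts, edgeR 4.0.16 (R 4.3.3) was run as a two-sided quasi-likelihood test with TMM factors and filterByExpr, adjusted by the Benjamini-Hochberg method over all genes tested, at a threshold of 0.05. Diets were compared within a day over 6 libraries, days within a diet over 12 lean or 18 DIO libraries, and changes of the diet difference over 24. Each SE is the absolute log2 fold change divided by the square root of the F statistic of its test. Alternatives were RLE factors, DESeq2 1.42.0, 2 other filters, the replicate number as a block, all 30 libraries in 1 fit and each library left out. The genes and lists were chosen with earlier results of these data known. The rule was to name all 10 genes in every comparison and at most 3 genes per pathway list. Against that rule, genes that did not pass are in part given by the lowest and highest estimates. The lists were 6 of pathway genes and 12 of cell type markers, and the values of some of their genes are not reported here. The tests were tested on simulated data. Same-numbered calli deviated together, with every correlation over 0.1, only for lean d7 and d5 (0.204 to 0.277). Positions and exon lengths are from GENCODE M21, and stretches of at least 100 bases and 95% identity were found with BLAST 2.17.0. Library pairs of a group had a chi-square per degree of freedom of at least 13.0, so no pair agreed within sampling noise. The precision is set by the spread between 3 mice and, for genes with few reads, by counting error.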

Additional observations from a re-analysis of the deposited data

Results flagged for a closer look

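The diet difference changed from d7 to d10, in the edgeR test of that change over 24 libraries, for Ciita (change in log2 fold change 3.05), H2-Aa (1.90) and H2-Eb1 (1.79). On the same test it changed for the pathway genes Irf1 (1.31), Rfx5 (1.17), Nfya (0.66) and Cd83 (1.63). In the test of any change from d3 to d10, Ciita had an adjusted p of 0.0218 and Irf1 of 0.0283. Between d7 and d10 Ciita fell by 1.79 on the log2 scale in lean callus (adjusted p = 0.0302) and rose by 1.25 in DIO callus (adjusted p = 0.0138), each with edgeR. The lowest of the lean d10 values, 1.38 CPM of Ciita, belonged to replicate 1, which also had the lowest Ptprc of all libraries.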

How the results depend on the processing

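For 31 results in which 1 of the 10 genes passed, 390 alternative values were computed. None reversed, 269 stayed past the threshold and 121 did not, and 6 of the 31 results were never lost. DESeq2, RLE factors and no filter on low counts lost 0 of them, the filter of 0.5 CPM 1, the replicate block 10 and the fit of all 30 libraries 11. Counts of the 10 genes called moved as follows, and the cause was not tested. On d5, DIO against lean, the count was 5 and became 0 with the replicate block, 1 with all 30 libraries and 9 with DESeq2. With all 30 libraries it became 3 on d7, 4 instead of 2 for lean d10 against d7, 1 instead of 2 for DIO d10 against d7, 1 instead of 2 for DIO d10 against d3, and 5 instead of 3 for any lean day, where DESeq2 gave 7. For DIO d7 against d5 it was 0, with 1 without a filter and 2 in DESeq2. For DIO d14 against d10 it was 1, with 2 without a filter, 0 with the replicate block, 0 with all 30 libraries and 2 in DESeq2. The replicate block gave 1 instead of 2 for DIO d10 against d3 and 1 instead of 3 for the change of the diet difference from d7 to d10. For any change of that difference the count was 1, with 3 without a filter and 4 in DESeq2.

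With each library left out in turn, the count ranged from 0 to 9 on d5 and from 0 to 6 on d7. It ranged from 0 to 2 for lean d10 against d7, from 2 to 5 for lean d10 against d3, from 0 to 2 for DIO d7 against d5, from 0 to 3 for DIO d10 against d7, from 1 to 2 for DIO d10 against d3, from 0 to 2 for DIO d14 against d10, from 4 to 6 for DIO d21 against d3, from 1 to 6 for the change from d7 to d10 and from 0 to 1 for any change.

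Same-numbered calli shared only a number in 14 of 15 comparisons, with correlations from -0.399 to 0.32. In the one comparison whose numbers paired, lean d7 against d5, the replicate block changed no call. Over all genes, DESeq2 called 753, 1116, 922 and 56 between the diets, in order of day, where edgeR called 0, 170, 366 and 0, and without a filter edgeR called 515, 565, 724 and 29. The 200 rescaled group means moved by less than 1 SD. With a library left out, 4 of 300 group means moved by over 1.5-fold, those of H2-Ob on lean d3 (7.90 to 3.89 CPM without replicate 2), lean d5 (7.45 to 3.94 without replicate 2) and DIO d7 (3.09 to 1.77 without replicate 3) and of H2-Oa on lean d10 (1.74 to 1.03 without replicate 2). So did 7 of 300 ratios to Ptprc, chosen after seeing the data, the most H2-DMb1 on lean d10 (0.858 to 0.439 without replicate 1). With 3 mice a group, calls near the threshold depend on single calli. H2-Ob and H2-Oa rest on few reads in the early DIO libraries, and Ciita on 31 to 44 reads on DIO d7. The lowest counts of all were in replicate 1 of lean d10, with 22 reads of Ciita, 8 of H2-Oa and 6 of H2-Ob.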
